A study of Mus musculus with 14 samples.

Results

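Transcript levels of 6 genes were compared across the 14 libraries: the receptor tyrosine kinase genes Kit, Flt3 and Csf1r, the cytokine receptor genes Csf3r and Epor, and Kitl, which encodes the ligand of the Kit receptor. The genes were chosen by name, as growth factor receptors that mark progenitors or single blood lineages together with the Kit ligand, and make up 6 of the 50686 genes counted. RNA came from mouse HPC-LSK cultures, which are haematopoietic progenitor lines, on a C57BL/6N background. There were 4 KO p210 libraries (Cdk6 knockout, transformed with BCR-ABL p210), 3 WT p210 libraries (Cdk6 wild type, transformed with BCR-ABL p210), 3 KO untransformed libraries and 4 WT untransformed libraries. Per the labels' protocols, p210 cultures received neither IL-6 nor SCF (stem cell factor, the protein made from Kitl), and untransformed cultures received 12.5 ng/ml IL-6 and 2% SCF. The letters SCF nevertheless stand in the p210 descriptions, with a meaning that the labels leave unsettled. Transformation and the change of medium therefore cannot be told apart in any p210 comparison. Code and letter in the descriptions were read as naming 8 lines within the genotypes, of which 6 were sequenced in both states. The labels do not state that these are lines. Whether replicates within a group are independent derivations is not stated, so a p-value here reflects only how far these libraries spread, which may be technical.

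Stem cell factor binds Kit, FLT3 ligand binds Flt3, and the macrophage colony-stimulating factor Csf1 binds Csf1r. These related receptor kinases pass the signal on by phosphorylating their own tails, and Kit is among the surface proteins by which early blood progenitors are recognised. Csf3r, the receptor for granulocyte colony-stimulating factor, and Epor, the erythropoietin receptor, have no kinase of their own and signal through bound JAK kinases. Csf1r is a marker of the monocyte and macrophage lineage, Csf3r of the neutrophil lineage and Epor of the erythroid lineage, while Flt3 is found on multipotent and lymphoid-primed progenitors.

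The stretch just upstream of the annotated starts is shown for 4 of the receptor genes, because these are regions where lineage factors commonly bind and because Kit, Flt3 and Epor were low together in p210 libraries, as described further on. Sequences are those of RefSeq for GRCm38.p6, read 5′ to 3′ on the strand of the gene, and stop before any annotated transcript of the gene. Kit is shown at chr5:75574737-75574915 on the plus strand, Flt3 at chr5:147400490-147400739 on the minus strand, Csf3r at chr4:126024409-126024549 on the plus strand and Epor at chr9:21963577-21963826 on the minus strand. Capitals mark matches, on either strand, to 5 short motifs. The letters GAGGAA are the core that PU.1 and related factors bind. Factors of the GATA family were searched for by the letters AGATAA. A second form of that family's motif was searched for by the letters TGATAA. For RUNX factors the letters TGTGGT were used. For KLF factors the letters CACCC were used.
Kit: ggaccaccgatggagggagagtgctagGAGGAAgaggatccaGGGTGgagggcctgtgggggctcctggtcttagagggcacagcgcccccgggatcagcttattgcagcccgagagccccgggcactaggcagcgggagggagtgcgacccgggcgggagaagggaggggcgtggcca
Flt3: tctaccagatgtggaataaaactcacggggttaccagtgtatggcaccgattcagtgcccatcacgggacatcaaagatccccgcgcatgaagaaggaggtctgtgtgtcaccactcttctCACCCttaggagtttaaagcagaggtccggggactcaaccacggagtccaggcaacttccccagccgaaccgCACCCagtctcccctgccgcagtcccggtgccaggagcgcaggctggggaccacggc
Csf3r: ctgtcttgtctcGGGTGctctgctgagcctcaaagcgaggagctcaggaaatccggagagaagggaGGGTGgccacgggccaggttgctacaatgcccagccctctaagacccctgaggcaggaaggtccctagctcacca
Epor: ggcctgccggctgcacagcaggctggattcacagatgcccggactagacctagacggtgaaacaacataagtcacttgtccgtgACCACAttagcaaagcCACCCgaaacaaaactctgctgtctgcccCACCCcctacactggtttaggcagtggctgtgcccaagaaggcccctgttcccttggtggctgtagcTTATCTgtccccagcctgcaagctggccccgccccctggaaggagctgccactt
The Kit window held 1 GAGGAA and 1 CACCC match, with CACCC read on the opposite strand. Over windows of the same 179 bases in 32851 RefSeq promoters, GAGGAA occurred in 17.1% and CACCC in 40.6%. In the Flt3 window 2 CACCC matches were found, a motif present in 52% of windows of 250 bases. Csf3r had 2 CACCC matches on the opposite strand, and 33.3% of windows of 141 bases held that motif. Of the 4 windows, the Epor window alone held an AGATAA match (opposite strand, in 9.99% of windows of 250 bases) and a TGTGGT match (opposite strand, in 14%), beside 2 CACCC matches. TGATAA was found in none of the 4 windows, against 7.94% of windows of 250 bases. No matches overlapped one another. A match is a run of letters in the reference and was not measured as binding.

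Total counts were 20270348 to 50303271 per library, and 18105 to 20689 genes were detected. Cdk6, the kinase gene targeted in the knockout, stood at 163 to 578 CPM (read counts scaled to a common library size by TMM) in KO p210, 576 to 606 CPM in WT p210, 236 to 271 CPM in KO untransformed and 970 to 1305 CPM in WT untransformed libraries. Reads of Cdk6 thus remained in all KO libraries. By edgeR's quasi-likelihood test Cdk6 was lower in KO untransformed libraries (log2 fold change -2.14 ± 0.34, adjusted p = 0.00573). Among p210 libraries it was not called (-0.86 ± 0.31, adjusted p = 0.147). The highest KO p210 value, 578 CPM in the library labelled KO p210 replicate 2, lay inside the WT p210 range and went against its label. Member results that rest on KO p210 are therefore also given without that library where a call changed. Of the genes that the rule picked from the lists, 4 of 12 kept their KO against WT p210 call without it, and 31 of 37 kept their call for p210 in KO lines. Bcr reached 302 ± 30.1 CPM in KO p210 and 237 ± 69.7 CPM in WT p210 libraries, against 70.9 ± 2.54 CPM in KO untransformed and 70.4 ± 4.54 CPM in WT untransformed libraries (means with SD over 4, 3, 3 and 4 libraries). Among the progenitor markers, Cd34 was present in all libraries at 368 to 1367 CPM. Ly6a, which encodes Sca-1, was low, at 0.553 to 29.1 CPM in KO p210, 10.3 to 13.9 CPM in WT p210, 26.4 to 42.2 CPM in KO untransformed and 13.6 to 112 CPM in WT untransformed libraries. Several lineage genes set WT untransformed replicate 3 apart from the other 3 of its group, and its values are given where they matter.

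**Figure D1:**
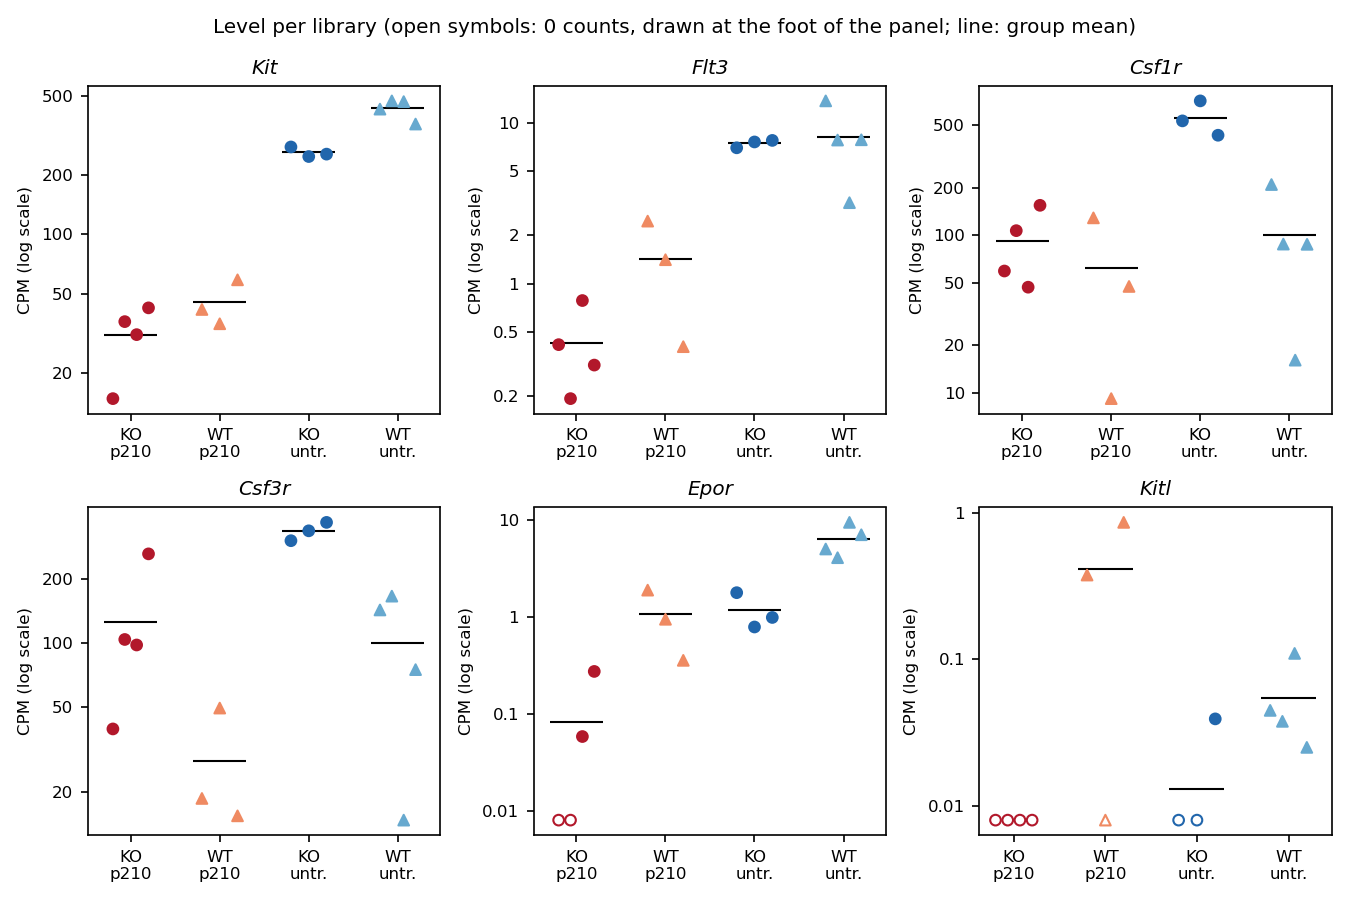
CPM (log scale) of the 6 genes in each library, by group (untr., untransformed); points are libraries, lines are group means, and open symbols are libraries with 0 counts drawn at the foot of the panel. Kit and Flt3 were lower in every p210 library than in every untransformed library, Csf1r and Csf3r were highest in KO untransformed libraries, and Epor was lowest in KO p210 libraries.

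Kit, the stem cell factor receptor (ENSMUSG00000005672.12, GRCm38, chromosome 5, 75574916 to 75656722, plus strand), was divided between the states without overlap. KO p210 libraries 1 to 4 held 14.9, 36.4, 31.3 and 42.7 CPM of Kit. WT p210 libraries held 41.9, 35.5 and 59.1 CPM. KO untransformed libraries held 276, 247 and 254 CPM, and WT untransformed libraries 428, 471, 467 and 360 CPM. All 7 p210 libraries lay below all 7 untransformed libraries, and the KO p210 and WT p210 ranges overlapped. Among untransformed libraries the 3 KO values lay below the 4 WT values.

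Within each genotype Kit fell with p210, and it remained detected in all libraries. The means were 31.4 ± 11.9 CPM in KO p210 and 259 ± 15.2 CPM in KO untransformed libraries (SD, n = 4 and 3), a log2 fold change of -3.04 ± 0.29 (SE) or 8.25-fold lower, with an adjusted p of 3.31e-05 by edgeR's quasi-likelihood test. In WT lines the means were 45.5 ± 12.2 CPM with p210 and 431 ± 51.4 CPM without (n = 3 and 4), a log2 fold change of -3.25 ± 0.31 or 9.49-fold lower (adjusted p = 2.99e-05). The difference between those changes was 0.20 ± 0.39 on the log2 scale (adjusted p = 0.842). Leaving out any 1 library left both calls in place. In each of the 6 lines sequenced in both states, Kit was lower with p210, by log2 differences of -4.20 to -2.57 with a median of -3.17.

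Between genotypes, KO untransformed libraries had 1.67-fold less Kit than WT untransformed libraries (log2 fold change -0.74 ± 0.28, adjusted p = 0.0935), a difference that missed the threshold of 0.05 although the groups did not overlap. It passed when only the untransformed libraries were fitted (adjusted p = 0.0106), with DESeq2 (0.0365), with limma-voom (0.0441) and without KO p210 replicate 1 (0.0188), the lowest Kit library, which is not among the samples compared. In p210 libraries the KO to WT difference was -0.53 ± 0.28 (adjusted p = 0.312).

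Kitl, the gene of the Kit ligand (ENSMUSG00000019966.18, chromosome 10, 100015630 to 100100416, plus strand), was at or near 0 and did not pass the filter on low counts. KO p210 libraries had 0 counts in each of 4. WT p210 libraries had 12, 0 and 17 counts, KO untransformed libraries 0, 0 and 2 counts, and WT untransformed libraries 1, 2, 4 and 1 counts. The 2 libraries above 10 counts were both WT p210, and the remaining WT p210 library had none. Pooled over libraries, KO p210 had 0 counts, with a 95% exact Poisson interval that reaches 0.0351 CPM. A level of 3 counts over that group would be 0.0286 CPM. WT p210 had 29 pooled counts or 0.357 CPM (interval 0.239 to 0.512, both counting error only). That value lay 12.5-fold above the level of 3 counts. This is no lower bound on the difference between the groups, since 1 WT p210 library was itself at 0. By an exact two-sided permutation test over libraries, KO against WT gave p = 0.286 in p210 and 0.171 in untransformed libraries, where the smallest p possible is 0.0571, so that no difference in Kitl could pass. All 4 comparisons gave adjusted values of 0.381 or above. Transcripts of the ligand were scarce beside those of the receptor: per length, mean Kitl was 0.236 TPM (a level scaled by gene length and by library) in WT p210 libraries, where mean Kit was 17.1 TPM.

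Flt3, the FLT3 ligand receptor (ENSMUSG00000042817.15, chromosome 5, 147330741 to 147400489, minus strand, overlapped on the other strand by Gm26597), behaved like Kit between the states at far lower levels. KO p210 libraries held 0.418, 0.193, 0.786 and 0.312 CPM, from 8, 5, 27 and 8 counts. WT p210 libraries held 2.45, 1.41 and 0.406 CPM, from 78, 42 and 8 counts. In KO untransformed libraries Flt3 stood at 7, 7.61 and 7.78 CPM, and in WT untransformed libraries at 13.7, 7.82, 3.19 and 7.85 CPM. Every p210 library lay below every untransformed library, with the highest p210 value in WT p210 replicate 1 and the lowest untransformed value in WT untransformed replicate 3.

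Flt3 fell with p210 in both genotypes. KO p210 libraries averaged 0.427 ± 0.256 CPM and KO untransformed libraries 7.46 ± 0.411 CPM (SD, n = 4 and 3), 17.1-fold lower (log2 fold change -4.09 ± 0.63, adjusted p = 0.000555). WT p210 libraries averaged 1.42 ± 1.02 CPM and WT untransformed libraries 8.14 ± 4.31 CPM (n = 3 and 4), 5.64-fold lower (-2.50 ± 0.63, adjusted p = 0.0084), or -3.14 without WT p210 replicate 1. The change was a log2 value of -1.60 ± 0.83 further down in KO than in WT lines, which did not pass the test of that difference (adjusted p = 0.405). All 6 lines were lower with p210, by log2 differences of -4.90 to -2.42.

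Genotype left Flt3 within its spread in untransformed libraries (log2 fold change -0.12 ± 0.57, adjusted p = 0.905), and the sign turned when WT untransformed replicate 1 was left out. Among p210 libraries the KO mean was lower by -1.72 ± 0.61 (adjusted p = 0.135), with the WT p210 replicate 3 value of 0.406 CPM inside the KO range. Without that library the difference was -2.16 (adjusted p = 0.0481), and without WT p210 replicate 1 it was -1.09 (adjusted p = 0.471). The p210 values come from 5 to 78 counts a library.

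Csf1r, the macrophage colony-stimulating factor receptor (ENSMUSG00000024621.15, chromosome 18, 61105572 to 61132149, plus strand, with Mir6983 on the same strand and Hmgxb3 on the other), was highest in KO untransformed libraries. The 4 KO p210 libraries held 59.3, 107, 46.8 and 155 CPM, and the 3 WT p210 libraries 129, 9.17 and 47.3 CPM. KO untransformed libraries held 533, 714 and 432 CPM. WT untransformed libraries held 210, 87.9, 16.1 and 87.6 CPM. The 3 KO untransformed values lay above the 11 others, which overlapped among their groups and spread widely within the WT groups.

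In untransformed lines Csf1r averaged 560 ± 143 CPM in KO and 100 ± 80.6 CPM in WT libraries (SD, n = 3 and 4), 5.58-fold higher, with a log2 fold change of 2.48 ± 0.83 that missed the threshold (adjusted p = 0.0638). It passed with only the untransformed libraries in the fit (0.0489), with DESeq2 (0.0191) and with limma-voom (0.0319). Leaving out WT untransformed replicate 1, WT p210 replicate 1 or WT p210 replicate 2 also brought it past the threshold (adjusted p between 0.037 and 0.0483). With p210 the genotypes differed by 0.57 ± 0.83 (adjusted p = 0.763), with means of 92 ± 49.2 CPM in KO and 61.9 ± 61.3 CPM in WT libraries. That value was 1.70 without WT p210 replicate 1 and 0.06 without WT p210 replicate 2.

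Transformed KO lines had 6.09-fold less Csf1r than untransformed KO lines (log2 fold change -2.61 ± 0.84, adjusted p = 0.029), and the groups did not overlap. The call was lost with the line as a replicate block (-2.47, adjusted p = 0.0924) and on leaving out KO untransformed replicate 1 or 2 or KO p210 replicate 1 or 3 or the library labelled KO p210 replicate 2, with adjusted p between 0.0546 and 0.0771. Of these, the library labelled KO p210 replicate 2 gave -2.69 (adjusted p = 0.0546) when left out. With the number of runs as a covariate the call was lost too (-2.48, adjusted p = 0.0564). In WT lines the change with p210 was -0.70 ± 0.83 (adjusted p = 0.538), or -1.84 without WT p210 replicate 1 and -0.06 without WT untransformed replicate 1. The interaction was -1.91 ± 1.15 (adjusted p = 0.472). Within lines, Csf1r was lower with p210 in 5 of 6 and higher in the WT line of replicate 3, by a log2 difference of 1.55 (47.3 CPM with p210 and 16.1 CPM without).

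The summed markers of the monocyte and macrophage lineage also had their highest median in KO untransformed libraries, though not every marker followed that order. The summed level of the 12 markers, all detected in every group, was 5979 to 11093 CPM in KO p210, 2765 to 5909 CPM in WT p210, 10178 to 15414 CPM in KO untransformed and 903 to 3723 CPM in WT untransformed libraries, of which Lyz2 (lysozyme) made up 68.9%. In untransformed lines 4 of the 12 were higher in KO than in WT (median of the list 1.91), among them Adgre1, a macrophage surface protein, with 275 ± 90.8 CPM in KO and 48.3 ± 35.6 CPM in WT libraries (log2 fold change 2.51 ± 0.65, adjusted p = 0.026). With p210, 3 of 12 fell in KO lines (F13a1, Cd14 and Irf8) and 2 of 12 rose in WT lines (Ccr2 and Adgre1). In WT p210 libraries Adgre1 stood at 289 ± 230 CPM and Ccr2 at 847 ± 179 CPM. Both means lay above those of KO untransformed libraries, where Ccr2 stood at 633 ± 156 CPM. Cd14 and Irf8 lost the KO call on leaving out the library labelled KO p210 replicate 2 (adjusted p = 0.0543 and 0.0706). The library with the least Csf1r among untransformed ones, WT untransformed replicate 3, also had the lowest marker sum, 903 CPM, whereas WT p210 replicate 2 combined 9.17 CPM of Csf1r with a sum of 5909 CPM. In bulk RNA, fewer cells of a lineage and less RNA per cell cannot be told apart, and the part of these markers in the Csf1r values was not tested.

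Csf3r, the granulocyte colony-stimulating factor receptor (ENSMUSG00000028859.14, chromosome 4, 126024550 to 126044440, plus strand), had higher means in KO than in WT libraries in both states, without passing the test. The KO p210 values were 39.6, 104, 98 and 262 CPM, and the WT p210 values 18.7, 49.6 and 15.5 CPM. KO untransformed libraries had 302, 336 and 368 CPM and WT untransformed libraries 143, 166, 14.8 and 75.1 CPM. KO untransformed values lay above those of every other group, KO p210 replicate 1 fell inside the WT p210 range, and WT untransformed replicate 3 lay below all p210 libraries.

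Means of Csf3r were 126 ± 95 CPM in KO p210 and 27.9 ± 18.8 CPM in WT p210 libraries (SD, n = 4 and 3), a log2 fold change of 2.17 ± 0.79 (adjusted p = 0.147). Untransformed means were 335 ± 32.8 CPM in KO and 99.6 ± 68.3 CPM in WT libraries (n = 3 and 4), a log2 fold change of 1.75 ± 0.73 (adjusted p = 0.12). DESeq2 called both (adjusted p = 0.0187 in p210 and 0.0431 in untransformed libraries). The change with p210 was -1.41 ± 0.72 in KO (adjusted p = 0.146) and -1.83 ± 0.77 in WT lines (adjusted p = 0.0797). Without KO p210 replicate 4, the highest of its group, the KO change was -2.06 (adjusted p = 0.0499), and without WT untransformed replicate 3 the WT change was -2.20 (adjusted p = 0.0207). The interaction was 0.42 ± 1.04 (adjusted p = 0.88), and its sign turned without KO p210 replicate 4. By line, Csf3r was lower with p210 in 5 of 6, and differed by 0.07 in the WT line of replicate 3.

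The 12 neutrophil markers followed the same order of groups by the median of their sum. Their sum ran over 1981 to 14649 CPM in KO p210, 1007 to 4012 CPM in WT p210, 14766 to 19305 CPM in KO untransformed and 105 to 7605 CPM in WT untransformed libraries. Mpo (myeloperoxidase) made up 54% of it over all libraries. Ly6g, a marker of mature neutrophils, was at 0 in the last 3 of these groups. KO p210 replicate 4 had the highest Csf3r of its group (262 CPM) with a sum of 14649 CPM, and WT untransformed replicate 3 the lowest of its group (14.8 CPM) with a sum of 105 CPM. The KO untransformed libraries went the other way, with the highest Csf3r (368 CPM) beside the lowest sum of their group (14766 CPM). No neutrophil marker of 11 passed the test between genotypes in either state. With p210, 0 rose and 2 fell in KO lines (list median 0.53), and 1 rose and 2 fell in WT lines (list median 0.79). Those that fell were Mpo and Prtn3 in each genotype, and Mpo lost its KO call on leaving out the library labelled KO p210 replicate 2 (adjusted p = 0.0894). Mmp8, a neutrophil collagenase, rose to 420 ± 502 CPM in WT p210, against 37 ± 33.4 CPM in WT untransformed libraries (3.51 ± 1.02, adjusted p = 0.0173). Their part in the Csf3r values was not tested.

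Epor, the erythropoietin receptor (ENSMUSG00000006235.6, chromosome 9, 21958897 to 21963506, minus strand), was low in all groups and lowest in KO p210. KO p210 libraries had 0, 0, 0.0582 and 0.273 CPM, from 0, 0, 2 and 7 counts. WT p210 libraries had 1.88, 0.941 and 0.355 CPM, from 60, 28 and 7 counts. KO untransformed libraries had 1.77, 0.784 and 0.983 CPM, and WT untransformed libraries 4.99, 4.06, 9.39 and 7 CPM. All KO p210 values lay below all WT p210 values, all WT untransformed values lay above every other library, and WT p210 overlapped with KO untransformed. Pooled, the 9 counts of KO p210 were 0.0857 CPM (95% exact Poisson interval 0.0392 to 0.163), and the upper ends of that interval for the libraries at 0 were 0.193 and 0.142 CPM, counting error only.

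Epor was the 1 member of 5 called between genotypes, in p210 libraries, where 4.44% of all tested genes were called. In p210 libraries the means were 0.0828 ± 0.13 CPM in KO and 1.06 ± 0.771 CPM in WT (SD, n = 4 and 3), a log2 fold change of -3.60 ± 0.88 (adjusted p = 0.0405). That call rests on 9 KO and 95 WT counts in all, and was lost on leaving out any 1 of 11 of the 14 libraries, with adjusted p of 0.0534 to 0.155. These were all but WT untransformed replicate 3, WT p210 replicate 3 and KO p210 replicate 4. Leaving out the library labelled KO p210 replicate 2 gave -3.20 (adjusted p = 0.0878). The size also turned on single libraries, at -5.26 without KO p210 replicate 4 and -2.90 without WT p210 replicate 1. Untransformed means were 1.18 ± 0.523 CPM in KO and 6.36 ± 2.36 CPM in WT libraries (n = 3 and 4), a log2 fold change of -2.43 ± 0.79 that missed the threshold (adjusted p = 0.0573). It passed in 10 of 28 alternatives, including DESeq2 (0.00251), limma-voom (0.00886) and, with adjusted p of 0.0262 to 0.049, on leaving out any 1 of 5 p210 libraries (WT p210 replicates 1 and 3 and KO p210 replicates 1 and 4, with the library labelled KO p210 replicate 2).

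With p210 Epor fell in both genotypes. In KO lines the log2 fold change was -3.73 ± 0.88 (adjusted p = 0.00649), and with the line as a replicate block it was -3.88 (adjusted p = 0.0745). Without KO p210 replicate 4, which holds 7 of the 9 counts of its group, the value was -5.39 (adjusted p = 0.00139). In WT lines it was -2.56 ± 0.80 or 5.91-fold lower (adjusted p = 0.0237), and with the line as a replicate block -2.60 (adjusted p = 0.114). Without WT p210 replicate 1 it was -3.28 (adjusted p = 0.02). The WT call was also lost without WT p210 replicate 2 or 3 (adjusted p = 0.0692 and 0.0703). With the number of runs as a covariate it was lost too (-2.19, adjusted p = 0.114). Per the descriptions all WT p210 libraries were sequenced on 1 run, and WT untransformed replicates 2, 3 and 4 on 2 runs. The interaction was -1.16 ± 1.11 (adjusted p = 0.664). All 6 lines were lower with p210, by log2 differences of -4.84 to -1.37.

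Several markers of maturing erythroid cells were at or near 0, but Car2 was well expressed in WT untransformed libraries. Of 15 erythroid markers, Slc4a1 and Alas2, which define maturing red cells, were at 0 in every library, and 8 did not pass the filter. Tfrc, the transferrin receptor that all dividing cells use, made up 85.6% of the summed level, which was 505 to 774 CPM in KO p210, 493 to 677 CPM in WT p210, 799 to 877 CPM in KO untransformed and 880 to 1129 CPM in WT untransformed libraries. Of 7 tested, 0 rose and 3 fell with p210 in KO lines, 1 rose and 3 fell in WT lines, 2 were lower in KO than in WT p210 libraries and 1 in untransformed libraries. Hbb-bt, a beta globin gene, was the one that rose, with 3.26 ± 3.17 CPM in WT p210 and 0.287 ± 0.156 CPM in WT untransformed libraries (3.46 ± 1.16, adjusted p = 0.0336), and Klf1, an erythroid transcription factor, was at most 0.539 CPM in any library. Gata1, the erythroid and megakaryocytic transcription factor, stood at 0.198 ± 0.182 CPM in KO p210, 3.92 ± 3.21 CPM in WT p210, 7 ± 1.88 CPM in KO untransformed and 26.3 ± 12.3 CPM in WT untransformed libraries, and was lower in KO than in WT with p210 (log2 fold change -4.41 ± 0.82, adjusted p = 0.0125; 0.0481 with the library labelled KO p210 replicate 2 left out). Megakaryocyte markers, of the same branch, were lower too, 5 of 10 in KO against WT untransformed and 3 of 10 in KO against WT p210 libraries, with none higher. Gp9 and Gp1ba lost the p210 call without that library (adjusted p = 0.0759 and 0.05). Their part in the Epor values was not tested.

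**Figure D2:**
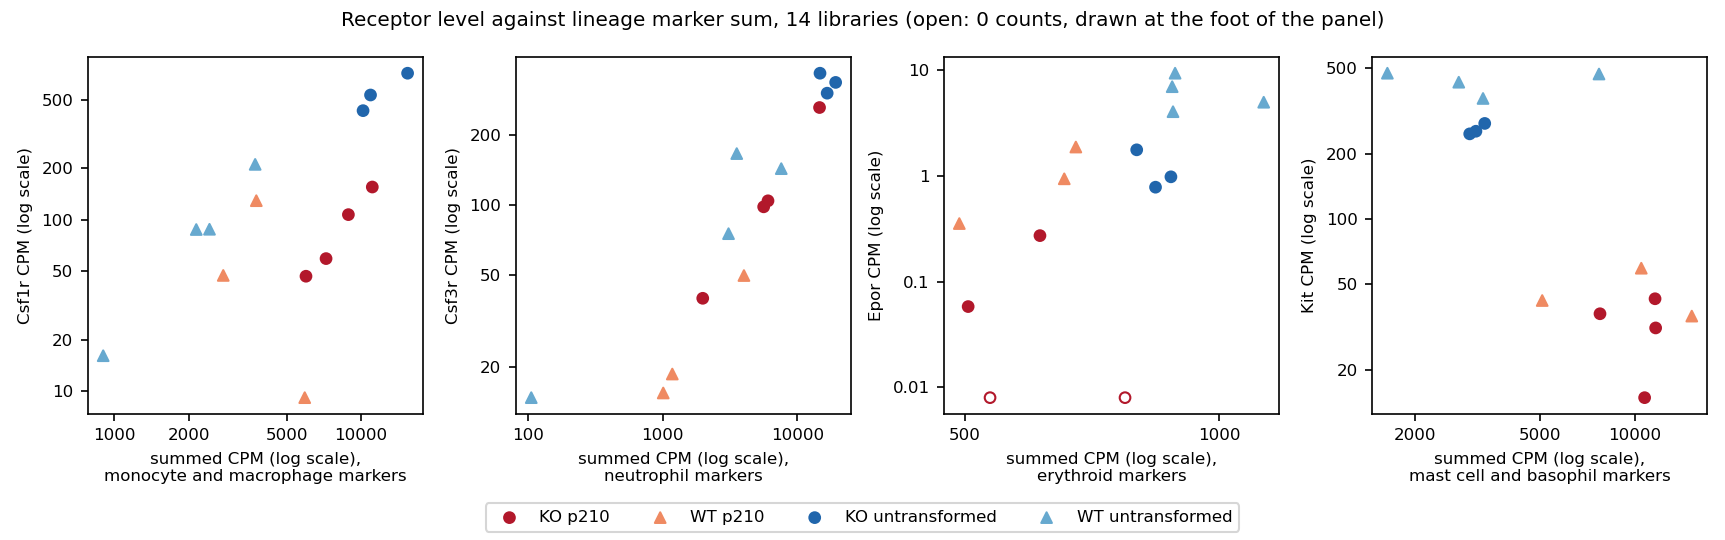
CPM of Csf1r, Csf3r, Epor and Kit (log scale) against the summed CPM of a marker list (log scale), 14 libraries coloured by group; open points have 0 counts and are drawn at the foot of the panel. Csf3r and the neutrophil sum ran together over libraries, WT p210 replicate 2 stood apart with little Csf1r beside a monocyte sum of 5909 CPM, and WT untransformed replicate 3 combined 467 CPM of Kit with the highest mast cell sum among untransformed libraries, 7695 CPM.

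Kit is also abundant on mast cells, and the summed level of 12 mast cell and basophil markers was 7751 to 11647 CPM in KO p210, 5079 to 15171 CPM in WT p210, 2988 to 3335 CPM in KO untransformed and 1636 to 7695 CPM in WT untransformed libraries. Cpa3, a mast cell protease, made up 47.3% of it, and Mrgprb2 and Tpsab1 were at 0 in KO p210. With p210, 4 of 11 tested markers rose and none fell in KO lines (list median 1.32), while 4 rose and 3 fell in WT lines (list median -0.71). In WT lines the sums overlapped between the states, with 7695 CPM in WT untransformed replicate 3 and 5079 CPM in WT p210 replicate 1. The part of these markers in the Kit values was not tested.

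Counted over the members, 4 of 5 fell with p210 in KO lines (all but Csf3r), where 37.2% of 14512 tested genes were called in either direction. In WT lines 3 of 5 fell (Kit, Flt3 and Epor), where 39.5% of genes were called. The groups did not overlap for 5 of 5 members in KO lines, against 46.1% of all genes, and for 3 of 5 in WT lines, against 45.0%. None of the 5 rose, while among all genes called 2790 rose and 2605 fell in KO lines, and 3173 rose and 2554 fell in WT lines. That split depends on the scaling: with library sizes alone it was 2093 higher and 3466 lower in KO lines and 2516 higher and 3471 lower in WT lines, and the median log2 fold change of all genes was then -0.12 and -0.10, against -0.01 and 0.02. Between genotypes the test called 1 of 5 members in p210 libraries (Epor, lower in KO), where 4.44% of genes were called, and the groups did not overlap for that 1 member, against 13.3% of genes. In untransformed libraries it called 0 of 5, against 15.2% of genes, although 4 of 5 members (all but Flt3) did not overlap, against 39.7% of genes. At an unadjusted p under 0.05 that comparison had 4 of 5 members, against 32.5% of all genes. DESeq2 called 4 members, against 24.1% of all genes, and limma-voom 3, against 19.7%. For the interaction 0 of 5 members were called and 0 reached an unadjusted p under 0.05, DESeq2 and limma-voom also called 0, and 0.0345% of genes (5 genes) were called. At an unadjusted p under 0.05 it had 2041 genes.

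**Figure D3:**
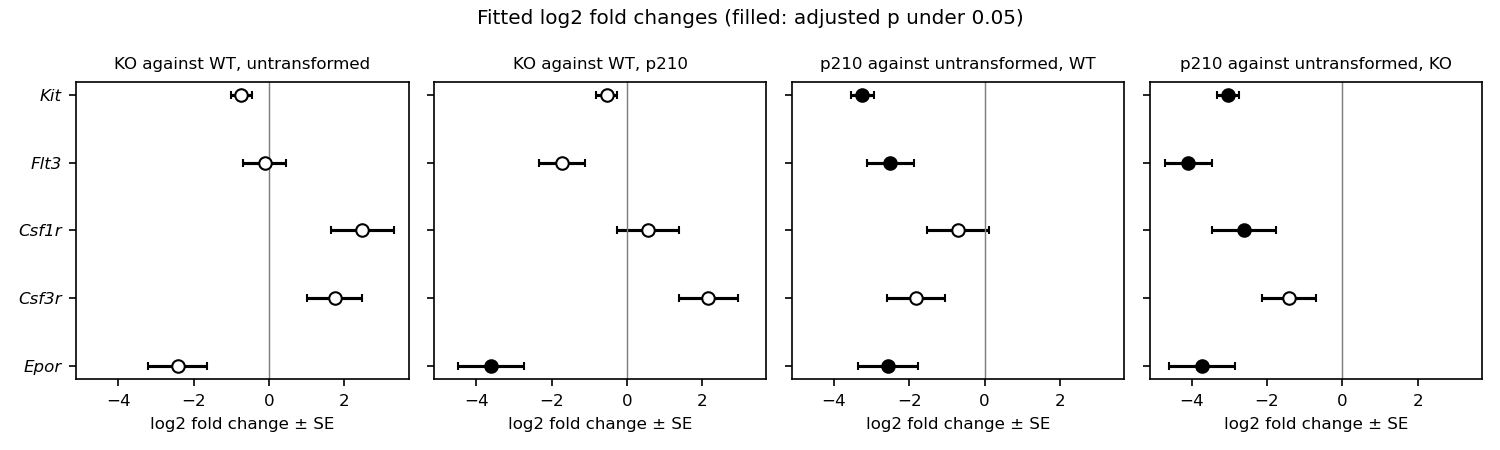
Fitted log2 fold change with its SE (horizontal axis) of the 5 tested members in 4 comparisons, from all 14 libraries; filled points passed the threshold of 0.05 on the adjusted p. All 5 members lay below 0 in both comparisons of p210 with untransformed libraries. In both KO against WT comparisons Csf1r and Csf3r lay above 0 and Kit and Epor below 0.

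Across the KO against WT comparisons, the signs were the same in both states for each tested member: fitted values were above 0 for Csf1r and Csf3r and below 0 for Kit, Flt3 and Epor. Of these 10 values 1 passed the threshold. The sign of Flt3 was not stable, since it turned in untransformed libraries with limma-voom (0.12) and in p210 libraries with the lines of the second code alone (0.44).

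**Figure D4:**
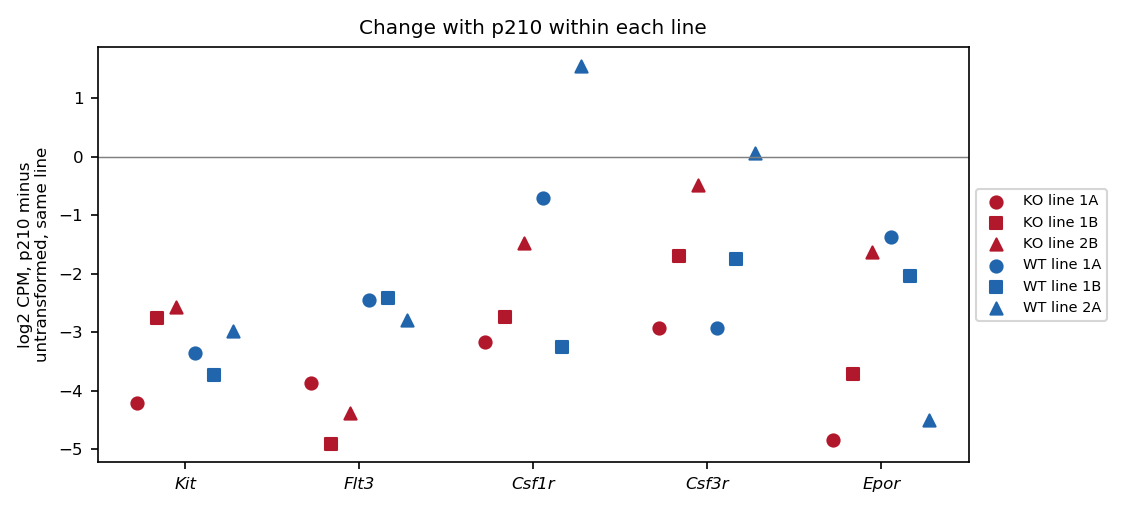
Log2 CPM of the p210 library minus that of the untransformed library of the same line (vertical axis; log2 CPM with a prior count of 2) for 5 receptor genes, 3 KO and 3 WT lines named by genotype, code and letter in the descriptions. Kit, Flt3 and Epor were below 0 in all 6 lines, and the WT line of replicate 3 lay above 0 for Csf1r and Csf3r.

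Per length the order of the receptors differed between groups. Mean levels in KO p210 libraries were 104 TPM for Csf3r, 56.1 TPM for Csf1r and 10.6 TPM for Kit. In WT p210 libraries they were 43.9 TPM for Csf1r, 25.5 TPM for Csf3r and 17.1 TPM for Kit. KO untransformed libraries had 374 TPM of Csf1r, 305 TPM of Csf3r and 95.3 TPM of Kit. In WT untransformed libraries Kit led with 180 ± 22.3 TPM, before Csf3r with 102 ± 70.2 TPM and Csf1r with 76 ± 60.5 TPM (SD, n = 4). Epor and Flt3 were lower than these 3 in every group, at 0.122 and 0.211 TPM in KO p210, 1.82 and 0.783 TPM in WT p210, 1.95 and 3.96 TPM in KO untransformed, and 11.9 and 4.87 TPM in WT untransformed libraries. Libraries of Csf1r and Csf3r overlapped in each of the 4 groups, and in WT untransformed libraries the highest Csf3r and Csf1r values, 171 and 158 TPM, reached into the Kit range of 149 to 197 TPM.

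As a description of likeness, members were set beside 9804 genes by Pearson's r of log2 CPM over the 14 libraries, which share groups and library depth. Nearest to Kit were Hnrnpll (0.98), a splicing regulator, Tmem131 (0.972) and Arhgap32 (0.968). Flt3 was nearest to Bambi (0.972), Acp6 (0.971) and Thumpd2 (0.964). For Csf1r these were Rasa4 (0.971), D1Ertd622e (0.964) and Nrp2 (0.963). Csf3r lay nearest to Lbp (0.958), Mpo (0.949), the neutrophil granule enzyme, and Cep350 (0.94). Epor lay nearest to Cdkn2c (0.984), which encodes the p18 inhibitor of Cdk4 and Cdk6, the platelet glycoprotein gene Gp9 (0.972) and Mfsd2b (0.971), a transporter of red cells and platelets. By Spearman's rho instead, 0 of these 3 genes stayed for Kit and Flt3, 2 for Csf1r, and 1 each for Csf3r and Epor, so the nearest genes depend on the measure. After the group means were taken out, Csf1r was nearest to Sirpa (0.975), a myeloid surface protein, Rbm47 (0.974) and Slc11a1 (0.968), a metal transporter of macrophages, Csf3r to Ap1s2 (0.971), Ipcef1 (0.962) and Lbp (0.961), and Epor to Cdkn2c (0.916), Helz (0.906) and Clstn3 (0.891). Kit was then nearest to Smim24 (0.903) and Flt3 to Arsb (0.938). Among the members, r was 0.86 for Kit with Flt3, 0.84 for Kit with Epor, 0.81 for Flt3 with Epor and 0.73 for Csf1r with Csf3r. With group means removed these were -0.38, 0.23, 0.26 and 0.39.

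The ligands and related receptors formed a list of 18 genes, of which 12 were tested. In KO against WT untransformed libraries 3 were higher and 0 lower, with a median log2 fold change of 0.88 against -0.02 over all genes. Of these Csf2rb, a signalling chain of the GM-CSF receptor, stood at 589 ± 60 CPM in KO and 220 ± 60.1 CPM in WT libraries (1.42 ± 0.27, adjusted p = 0.00919), and Csf2ra, its ligand-binding chain, at 59.3 ± 12.1 CPM in KO and 23 ± 5.37 CPM in WT libraries (1.37 ± 0.37, adjusted p = 0.0314). Reads of Csf2rb and its close copy Csf2rb2 may be split between the pair, so their levels are uncertain. In KO against WT p210 libraries 0 were higher and 2 lower, with a median of -0.22. Tek, the angiopoietin receptor, was among them, at 0.0484 ± 0.0581 CPM in KO and 4.92 ± 4.24 CPM in WT p210 libraries (-6.34 ± 1.28, adjusted p = 0.0174; 0.0556 with the library labelled KO p210 replicate 2 left out).

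Against untransformed libraries, p210 libraries had 4 of the 12 higher and 4 lower in each genotype, with medians of -0.00 in KO and 0.61 in WT lines. The ligand gene Csf1 rose to 53 ± 14.3 CPM in WT p210, against 3.91 ± 1.85 CPM in WT untransformed libraries (3.77 ± 0.73, adjusted p = 0.00187), while its receptor Csf1r did not pass there. Flt3l, the FLT3 ligand gene, rose to 12.1 ± 2.87 CPM in KO p210, against 4.55 ± 0.787 CPM in KO untransformed libraries (1.41 ± 0.25, adjusted p = 0.00132), where Flt3 itself fell. Tek fell to 0.0484 ± 0.0581 CPM in KO p210, against 12.7 ± 3.25 CPM in KO untransformed libraries (adjusted p = 0.000789).

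All 28 proteins that relay the receptors' signals were tested. With p210, 8 rose and 8 fell in KO lines and 7 rose and 8 fell in WT lines, with medians of 0.03 and 0.12 against -0.01 and 0.02 over all genes. Pik3cd, a catalytic subunit of PI3 kinase, rose to 763 ± 200 CPM in KO p210, against 150 ± 30.1 CPM in KO untransformed libraries (2.34 ± 0.36, adjusted p = 0.000509), and to 740 ± 192 CPM in WT p210, against 62.7 ± 25.9 CPM in WT untransformed libraries (3.56 ± 0.35, adjusted p = 3.04e-05). Jak2, the kinase bound to Epor, rose by 0.93 ± 0.15 in KO (adjusted p = 0.00057) and 0.82 ± 0.14 in WT lines (adjusted p = 0.000881). Between genotypes 5 were higher and 3 lower in KO untransformed libraries, among them Lyn, a Src family kinase (0.62 ± 0.10, adjusted p = 0.00656), and Stat5a, a transcription factor under these receptors (-0.66 ± 0.12, adjusted p = 0.00907). In p210 libraries 1 of 28 was called, Plcg2, a phospholipase, higher in KO (0.53 ± 0.12, adjusted p = 0.0283; 0.0774 with the library labelled KO p210 replicate 2 left out).

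Among 18 tested proteins that restrain these receptors, p210 brought 4 higher and 3 lower in KO and 7 higher and 2 lower in WT lines, with medians of -0.03 and 0.35. Socs2, a STAT5-induced feedback inhibitor, rose to 105 ± 10.3 CPM in KO p210, against 4.56 ± 1.11 CPM in KO untransformed libraries (4.52 ± 0.31, adjusted p = 5.8e-06), and to 153 ± 19.7 CPM in WT p210, against 3.96 ± 1.62 CPM in WT untransformed libraries (5.26 ± 0.29, adjusted p = 1.05e-06). Cish, of the same family, rose by 4.33 ± 0.43 in KO and 4.12 ± 0.39 in WT lines (adjusted p = 4.75e-05 and 2.54e-05). Socs3, which binds the G-CSF receptor, fell in KO lines, with 17.7 ± 5.25 CPM in KO p210 and 65.7 ± 4.15 CPM in KO untransformed libraries (-1.89 ± 0.20, adjusted p = 6.75e-05). Cbl, the ubiquitin ligase that sends Kit and Flt3 to degradation, was higher in KO than in WT libraries in both states (0.43 ± 0.10 with p210, adjusted p = 0.0336, and 0.44 ± 0.10 without, adjusted p = 0.0165). The p210 call of Cbl was lost without the library labelled KO p210 replicate 2 (adjusted p = 0.0755).

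Of 21 lineage transcription factors, KO untransformed libraries had 3 above and 2 below their level in WT untransformed libraries, with a median of -0.13 against -0.02 over all genes. With p210, 2 rose and 6 fell in KO lines (median -0.28) and 5 rose and 3 fell in WT lines (median 0.08). Spi1 (PU.1), known to act on Csf1r and Csf3r, stood at 275 ± 31.6 CPM in KO untransformed and 120 ± 37.7 CPM in WT untransformed libraries (1.20 ± 0.21, adjusted p = 0.00735). The fitted values of both receptors lay above 0 there without passing, and any part of Spi1 in them was not tested. Cebpb, a myeloid factor, was higher (1.74 ± 0.50, adjusted p = 0.0384), and Zfpm1, the GATA1 partner known as FOG1, was lower in KO (-1.47 ± 0.31, adjusted p = 0.013). Gata2, a progenitor and mast cell factor, was lower in KO untransformed libraries (-0.85 ± 0.20, adjusted p = 0.0183). With p210 it rose to 510 ± 111 CPM in KO p210, against 204 ± 31 CPM in KO untransformed, and to 825 ± 189 CPM in WT p210, against 368 ± 50.3 CPM in WT untransformed libraries (adjusted p = 0.000515 and 0.000698). Lmo2, part of the complex that works with GATA factors, fell with p210 in KO (-1.51 ± 0.19) and in WT lines (-1.77 ± 0.20) (adjusted p = 0.000174 and 8.05e-05).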

How the data were processed

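Trimmomatic, STAR and featureCounts with GRCm38 are named in the submitters' processing notes, with versions of Trimmomatic and STAR not given in the sources used here. Raw read counts per gene, made by the authors with featureCounts 1.5.1 and reverse-stranded counting per the file headers, were deposited beside TPM. The deposited TPM values follow from the counts and exonic lengths, with a largest difference of 0.049 on recomputing, and entered no test. Symbols were matched for 50376 of 50686 gene IDs, and coordinates are those of the files.

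Counts were fitted with edgeR 4.0.16 in R 4.3.3 (TMM scaling, filterByExpr with a minimum count of 10 and a minimum total of 15, robust quasi-likelihood F-test, Benjamini-Hochberg over the 14512 genes left). A single fit took all 14 libraries, with the 4 groups as its only factor, so that the spread of a gene was estimated over the 4 groups together. Kitl was the 1 of 6 members not left by the filter. CPM use TMM-scaled sizes and means carry their SD. The step was tried on simulated counts for KO against WT untransformed libraries alone. Every simulated gene had the same spread, so the trial does not check calls of widely spread genes. Alternatives included DESeq2 1.42.0 and limma-voom (limma 3.58.1). Intervals cover counting error only. Libraries that share genotype, code and letter were read as 1 line, which the labels do not state. Their deviations from group means correlated at only 0.02 to 0.16. Line is used as a replicate block beside p210 results. Named genes were the members, Cdk6, up to 4 genes per list and comparison with the smallest adjusted p, and the 3 genes of most similar pattern with at least 5 CPM; fewer are printed. Members, the 13 lists and motifs were chosen with earlier results of these data known. Protein sequences, the Csf1r promoter and 1 gene of the lists, which list counts include, are not reported here.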

Additional observations from a re-analysis of the deposited data

How the results depend on the processing

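Kit, Flt3 and Epor kept their sign in both p210 comparisons under all alternatives, and of 694 values of member and alternative, 617 kept sign and side of the threshold, 38 lost and 30 gained the call and 9 changed sign. In KO against WT untransformed libraries the 0 members called became 1 with library size scaling only and with the stricter filter, 3 with only the groups compared, 4 with DESeq2, 3 with limma-voom, and 0 to 2 on leaving out 1 library. In KO against WT p210 libraries the 1 call became 0 with no filter, the number of runs as a covariate, limma-voom, and with a pair of libraries left out together, the one labelled KO p210 replicate 2 and WT untransformed replicate 3 (chosen after seeing the data), 2 with the first code alone and with DESeq2, and 0 to 2 on leaving out 1 library. With only the groups compared, Epor did not pass the filter on low counts and was not tested, and no other member was called. The second code alone, with 1 WT p210 library, gave Epor at -1.15. With p210 the second code alone gave 0 calls in KO lines (Kit at -2.78, adjusted p = 0.0569) and 1 in WT lines (Kit). The replicate block, paired by line, gave 2 calls in KO and 2 in WT lines and changed no other call than those of Csf1r and Epor. Between genotypes libraries share only code and letter, with deviations correlated at -0.08 to 0.03, and the replicate block gave 0 calls in either state, with Epor in p210 libraries at -3.87 (adjusted p = 0.0756).

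The values that changed sign were Flt3 between genotypes in untransformed libraries at 0.21 (without WT untransformed replicate 1; -0.41 to 0.21 on leaving out 1 library), 0.46 (second code alone) and 0.12 (limma-voom) and in p210 libraries at 0.44 (second code alone), and in the interaction Kit at -0.11 (runs), Csf3r at -0.13 (replicate block), -0.23 (without KO p210 replicate 4; -0.23 to 1.13 on leaving out 1 library) and -0.21 (limma-voom), and Epor at 1.94 (second code alone). The causes were not tested. Counts of all genes called ranged over 0 to 3499 (2211 in the reported fit) and 4 to 1454 (645) for KO against WT untransformed and p210, 73 to 6124 (5395) and 1566 to 6381 (5727) for p210 in KO and WT, and 0 to 409 (5) for the interaction. Depth limits Kitl and the p210 values of Epor and Flt3, which rest on 0 to 78 counts a library.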

Other observations

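Stem and multipotent progenitor markers also differed between the states and between genotypes. Of 13 tested, 7 fell and 1 rose with p210 in KO lines and 4 fell and 1 rose in WT lines, 4 were lower in KO than in WT p210 libraries, and 1 of 13, Ctnnal1, was lower in KO than in WT untransformed libraries (-1.16 ± 0.31, adjusted p = 0.029; list median -1.11). Slamf1, a stem cell surface protein, stood at 0.1 ± 0.148 CPM in KO p210 and 3.28 ± 1.89 CPM in WT p210 libraries (log2 fold change -5.15 ± 0.83, adjusted p = 0.00649), against 5.84 ± 1.88 CPM in KO untransformed and 25.3 ± 10.5 CPM in WT untransformed libraries. Hlf, a stem cell transcription factor, stood at 0.19 ± 0.0851 CPM in KO p210 and 22.1 ± 25 CPM in WT p210 libraries (adjusted p = 0.00323), with a wide spread in WT p210. Cd27, of the TNF receptor family, fell to 0.0365 ± 0.0554 CPM in KO p210, against 9.96 ± 1.91 CPM in KO untransformed libraries (adjusted p = 0.0011), and to 0.576 ± 0.969 CPM in WT p210, against 27.5 ± 15.8 CPM in WT untransformed libraries (adjusted p = 0.00378). Thy1 was the marker that rose in both genotypes, to 705 ± 686 CPM in KO p210, against 1.33 ± 0.738 CPM in KO untransformed libraries (adjusted p = 0.0038), and to 35.3 ± 28 CPM in WT p210, against 1.43 ± 0.74 CPM in WT untransformed libraries (adjusted p = 0.0258).

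The lymphoid, dendritic, stromal and endothelial lists lost many genes to the filter on low counts. Of 13 lymphoid markers 4 were tested and 1 (Vpreb1) fell, with p210 in KO lines, a call lost without the library labelled KO p210 replicate 2 (adjusted p = 0.0503), and Rag1 and Cd3e were at 0 in every library. Il7r made up 75.5% of the lymphoid sum, at 0.769 to 43.1 CPM over all libraries. Of 9 dendritic cell markers 5 were tested, and Itgax rose with p210 in both genotypes, to 67 ± 41.9 CPM in KO p210, against 7.06 ± 2.07 CPM in KO untransformed libraries (adjusted p = 0.0116), and to 38.6 ± 22.4 CPM in WT p210, against 1.95 ± 1.72 CPM in WT untransformed libraries (adjusted p = 0.00183). Of 12 stromal and endothelial markers 7 were tested, Dcn was at 0 throughout, and Pecam1, which blood cells also carry, made up 84.3% of their sum.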
